A study of Mus musculus with 2 samples.

Results

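Monocytes of the mouse brain were the cells of interest, and 278 of 19864 single cells were taken as monocytes by their own transcript counts. Cells with at least 500 gene UMIs (unique molecular identifiers, 1 for each captured transcript) were selected on Ly6c2, Ccr2, Plac8, Ace, Spn, Ear2 and Treml4, which together had to reach 4 UMIs. A selected cell also had at most 1 UMI of Cd209a and Flt3 in sum, at most 1 of Cd3d, Cd3e and Cd3g, at most 1 of Ncr1, Klrb1c and Klre1, at most 2 of Cd79a and Cd79b, at most 2 of Mpo and Elane, and under 1% of its gene UMIs from S100a8 and S100a9. The cells were thus chosen by their own counts of these genes, whose values are described and were not tested.

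The series asked how microglia depend on the Arp2/3 complex, the machine that nucleates branched actin filaments, by deleting its subunit Arpc4. Viable CD45+ cells were sorted from the brains of 8 C57BL/6J mice aged 12 weeks, marked with a tag per mouse, pooled and sequenced as 1 library of 3′ tags. The 4 control mice carried Arpc4 fl/fl and no Cre, and the 4 knockout mice, Arpc4ΔCx3cr1, carried Arpc4 fl/fl and a single copy of a BAC transgene that expresses Cre from the Cx3cr1 promoter, so that every mouse had the floxed alleles and the controls were Cre-negative littermates. The Cx3cr1 promoter is active in microglia and also in monocytes and other macrophages. By the methods all control mice were male and the knockout mice were 3 males and 1 female, and which mouse was female is not given.

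Mouse monocytes fall along a range. Classical monocytes carry Ly6C and the chemokine receptor Ccr2, through which they leave the bone marrow and enter tissue, and non-classical monocytes carry Cx3cr1, Spn (CD43) and Treml4, depend on the transcription factors Nr4a1 and Cebpb, and patrol the inner wall of vessels. In a healthy brain, monocytes are found mainly in vessels, meninges and choroid plexus, and microglia, which arise from the yolk sac, fill the tissue itself.

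The control mice gave 1257, 2831, 2705 and 2650 cells and the knockout mice 2632, 2543, 2704 and 2542 cells, and 0 barcodes were shared between mice. Control 1 had fewer cells than any other mouse and 5251527 gene UMIs, against 10419683 to 12878691 in the other 7 mice. The monocyte sums, on which every level below rests, held 76996, 108284, 127218 and 117982 gene UMIs in control and 639358, 148650, 295298 and 43726 in knockout mice. Knockout 1 was the deepest of these sums and knockout 4 the shallowest, so a gene with 3 UMIs in knockout 4 already stands at 68.6 CPM (gene UMIs scaled to 1000000 per mouse and cell class). The median monocyte held 3388, 3319, 4347 and 3558 UMIs in control and 5485, 3270, 3364 and 3664 in knockout mice. The authors' tables hold only barcodes given to 1 mouse by its tag, and no doublet caller was run on them.

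Knockout 1 stood apart from the other mice before any comparison. Its microglia held 1410 CPM of Xist, the RNA of the inactive X chromosome, against 3.57 to 11.9 CPM in the other 7 mice, and 3.99 CPM of the Y-linked Ddx3y, against 65.8 to 83.7 CPM. They also held 749 CPM of the haemoglobin gene Hbb-bs, against at most 3.46 CPM in every other mouse. Its monocytes held 122 UMIs of Xist, against 0 to 8 in the others. The monocyte sums differ in depth, and in CPM knockout 1 had 191 and knockout 4 had 68.6.

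The rule genes themselves, as the counts that made the choice, were present in the monocytes of both genotypes. Plac8, a small cysteine-rich protein of myeloid cells, had 623, 1413, 935 and 661 CPM in control and 3252, 841, 1700 and 2516 CPM in knockout mice. Ccr2 had 714, 471, 527 and 678 CPM in control and 414, 108, 105 and 137 CPM in knockout mice, with knockout 1 nearest to the controls. Ly6c2 had 0, 360.2, 0 and 585 CPM in control and 40.7, 6.73, 23.7 and 91.5 CPM in knockout mice. The value of knockout 4 is 4 UMIs of 1 cell, which held 0 UMIs of Ccr2, 6 of Tcf7 and 5 of Klrb1b, genes of lymphoid cells. Thus 2 of the control mice had no UMI of Ly6c2, the gene that defines classical monocytes, and Ly6c2 can share reads with its near-identical neighbour Ly6c1.

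The genes of non-classical monocytes among the rule genes were found in all 8 mice. Ace, the angiotensin-converting enzyme, had 195, 111, 244 and 119 CPM in control and 216, 283, 566 and 412 CPM in knockout mice. Spn had 234, 139, 267 and 93.2 CPM in control and 214, 209, 501 and 503 CPM in knockout mice. Ear2, an eosinophil-associated ribonuclease whose family has near-identical members, had 507, 416, 589.5 and 237 CPM in control and 272, 377, 477 and 778 CPM in knockout mice. The groups overlapped for Ace, Spn and Ear2. Treml4, a receptor of the TREM family, had means of 123 ± 71 CPM (SD, n = 4) in control and 243 ± 108 CPM (SD, n = 4) in knockout mice. In near-empty droplets of the pool, with at most 100 UMIs each, the free RNA held 53.6 CPM of Plac8, 14.2 of Ly6c2, 13.3 of Ccr2, 8.91 of Ear2, 5.69 of Spn, 4.82 of Ace and 3.94 of Treml4.

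The median monocyte had a sum of 14 UMIs of the rule genes, 10.5 in control and 15 in knockout mice. Just inside the threshold, 18 cells had a sum of 4, of which 9 came from control and 9 from knockout mice, and they held 45 UMIs of Ccr2 and 10 of Plac8. Just outside it, 26 cells had a sum of 3, of which 21 came from control and 5 from knockout mice, and they held 54 UMIs of Ccr2 and 10 of Plac8.

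Against microglia (17974 cells), among genes with a mean of at least 100 CPM in monocytes, the 15 with the largest ratio of mean CPM were Car1, Retnla, Ear2, Cd300e, Ace, Krt80, Fabp4, Treml4, Gpr141, Plac8, Gda, Spn, Rasgrp2, Napsa and Rara, and 5 of them are rule genes. Cd300e, an activating receptor of monocytes, had a mean of 155 CPM in monocytes and 0.0846 CPM in microglia. Fabp4, a fatty acid carrier, had 273 CPM against 0.195 CPM, and Napsa, an aspartic protease, had 564 CPM against 1.14 CPM. Cd300e and Fabp4 mark non-classical monocytes, and like Napsa they had UMIs in all 8 mice. Car1, a carbonic anhydrase, came from 1 cell in each of 3 mice and Retnla, a resistin-like protein, from control 3 alone, at 841 CPM, with a ratio set by a floor because microglia held 0.

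The rule genes split the monocytes into a Ly6c2/Ccr2 side, where Ly6c2 and Ccr2 UMIs exceeded those of Ace, Spn, Ear2 and Treml4, and an Ace/Spn side, where they were fewer. The Ly6c2/Ccr2 side held 76 cells, the Ace/Spn side 192, and 10 cells lay on neither. The sides are ranges of a difference, and 11 cells lay within 1 UMI of the border on either side of it. Within the Ace/Spn side the leading genes by ratio to the other side, among genes with at least 100 CPM on the side, were Car1, G0s2, Fabp4, S1pr5, Car2, Cd300e, Ace, Eno3, Ear2 and Dusp5. Nr4a1 had 422 CPM on the Ace/Spn side and 38.6 CPM on the other, and Cd300e had 333 CPM against 5.27 CPM. Of the 192 cells there, 152 held UMIs of Nr4a1 and 131 of Cd300e, genes of non-classical monocytes. Car1 was found in 2 cells of this side, with 162 UMIs in control 1 and 542 in knockout 2, and in 1 cell of neither side, with 169 UMIs in control 3, and Car2 had UMIs in 3 mice on this side. The 3 cells with Car1 held 25659, 53012 and 23405 of the gene UMIs of their mice and 0, 2 and 2 UMIs of the non-classical list.

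By the same limit the leading genes of the Ly6c2/Ccr2 side were Ifi205, Ly6c2, Olfm1, Ly6d, Ifit3, H2-Eb1, Klrd1, H2-Aa, H2-Ab1 and F13a1. They include the classical monocyte genes Ly6c2 and F13a1 beside interferon-induced, antigen presentation and lymphoid genes, and Ly6d came from 1 mouse. H2-Aa, a chain of the class II molecule that presents peptides to CD4+ T cells, had 5281 CPM there and 196 CPM on the Ace/Spn side. Cd74, the invariant chain that escorts class II molecules, had 16850 CPM against 1164 CPM. Ly6c2 reached 4 UMIs in 8 monocytes, so the name of classical monocytes is not borne out for most of the side, and it is called by its genes here.

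By level of class II genes the Ly6c2/Ccr2 side fell into ranges of unequal size. On this side 53 cells took at least 1% of their UMIs from class II genes, 27 of them from control and 26 from knockout mice, of which 24 came from knockout 1. Their median depth was 6855 UMIs, and their median class II level was 5.12% of UMIs. They held 18 UMIs of Xcr1 and 22 of Clec9a, markers of conventional dendritic cells, and 10 of them had at least 10 UMIs of the dendritic cell marker list. The other 23 cells, 9 from control and 14 from knockout mice, had little class II and held 134 of the UMIs of Ly6c2 and 502 of the UMIs of Saa3, an acute phase protein, all of these 502 in knockout 1. Only 5 cells of the side had between 0.5% and 2% class II. The 192 cells of the Ace/Spn side, 37 from control and 155 from knockout mice, had a median class II level of 0.0332%. Whether the cells rich in class II are monocytes, dendritic cells or doublets was not tested.

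**Figure D1:**
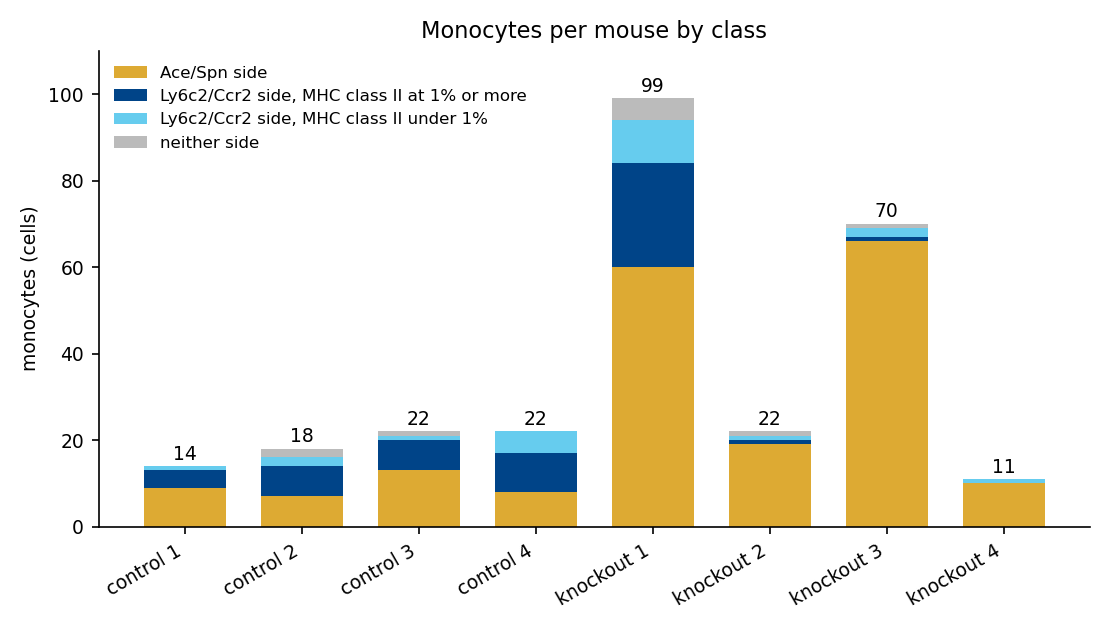
Monocytes in each of the 8 mice (cells, stacked bars), divided by the side of the rule genes and the class II level. The 4 control mice hold 14 to 22 monocytes, and knockout 1 and knockout 3 hold 99 and 70, mostly on the Ace/Spn side.

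Marker genes of other cell types were set beside the monocytes. All 16 microglia markers had UMIs, and their sum stood at 13351, 36524, 15328 and 24156 CPM in control and 10772, 14948, 14826 and 9880 CPM in knockout monocytes, led by the protease inhibitor Cst3, while in near-empty droplets Cst3 alone stood at 49422 CPM. The 10 markers of CNS-associated macrophages summed to 753, 351, 204 and 475 CPM in control and 160, 87.5, 213 and 22.9 CPM in knockout monocytes, led by Pf4, with Cd163 and Lyve1 at 0. The 14 dendritic cell markers summed to 182, 887, 362 and 729 CPM in control and 361, 80.7, 102 and 91.5 CPM in knockout monocytes, led by Wdfy4, with Ccr7 at 0. In these lists the controls lay mostly above the knockouts, and in the macrophage list only control 3 fell within the knockout range.

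Lymphoid markers were sparse in the monocytes, and plasmacytoid markers summed to more than each lymphoid list in all 8 mice. The 10 plasmacytoid dendritic cell markers summed to 351, 1376, 519 and 712 CPM in control and 369, 303, 481 and 503 CPM in knockout mice, led by Rnase6, with Klk1 and Iglc3 at 0. The sum was not particular to monocytes, as microglia held 487 to 504 CPM in control and 540 to 601 CPM in knockout mice. The 11 T cell markers reached at most 78.6 CPM in a mouse, in control 3, with Trac, Cd8b1 and Lck at 0. The 10 natural killer cell markers summed to 39, 175, 86.5 and 76.3 CPM in control and 124, 26.9, 3.39 and 366 CPM in knockout mice, led by Klrd1, with Ncr1, Klrb1c, Prf1, Eomes and Klra8 at 0. The 9 B cell markers summed to 195, 240.1, 197 and 297 CPM in control and 68.8, 26.9, 105 and 137 CPM in knockout mice, led by Ighm, with Ms4a1, Ebf1, Pax5 and Iglc2 at 0. The groups did not overlap in the B cell sum, which was nearly all Ighm. In microglia of the same mice this list summed to 229 to 246 CPM in control and 82.2 to 145 CPM in knockout mice, also without overlap. Near-empty droplets held 220 CPM of Ighm, against a mean of 138 CPM in monocytes. The part of free RNA in the difference was not tested.

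Other myeloid, vascular and red cell markers were low as well. The 10 granulocyte markers summed to 130, 231, 78.6 and 203 CPM in control and 308, 195, 257 and 1212 CPM in knockout monocytes, led by S100a8, with Mmp9 at 0, and knockout 4 stood highest. The 7 progenitor markers, led by Prtn3, reached at most 178 CPM, in control 4, and the 5 basophil and mast cell markers, led by Gata2, at most 60.5 CPM, in knockout 2, with Mcpt8 at 0. Of the 12 brain tissue and vessel markers, Cldn5, Aqp4, Gfap, Mobp, Snap25, Syt1 and Meg3 were at 0, and the sum of 221, 120.1, 110.0 and 127 CPM in control and 209.6, 222, 413 and 366 CPM in knockout monocytes was led by Mbp. The 5 haemoglobin genes reached at most 20.2 CPM, in knockout 2, with Hbb-bt and Alas2 at 0. The part of these markers in the differences below was not tested.

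The share of monocytes asks whether more or fewer of the sorted cells were monocytes without Arpc4. Monocytes were 1.11%, 0.636%, 0.813% and 0.83% of cells in control and 3.76%, 0.865%, 2.59% and 0.433% in knockout mice. Knockout 1 and knockout 3 lay above every control, knockout 2 lay among them and knockout 4 lay below them all. The exact 95% binomial (Clopper-Pearson) interval, which covers counting error only, was 3.07% to 4.56% in knockout 1 and 0.216% to 0.773% in knockout 4. The means were 0.848 ± 0.198% in control and 1.91 ± 1.55% in knockout mice (SD, n = 4 each), and an exact two-sided permutation test over mice gave p = 0.343 (adjusted p = 0.343). The spread among knockout mice was larger than the difference of 1.06 percentage points, which was 0.447 without knockout 1 and 0.838 without knockout 3.

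Set against the cells other than microglia, the shares were 9.33%, 7.66%, 7.67% and 12.3% in control and 28.3%, 10.2%, 26.2% and 5.34% in knockout mice. The same 2 knockout mice stood high and knockout 4 stood low. The means were 9.24 ± 2.18% and 17.5 ± 11.5% (SD, n = 4 each), with an exact permutation p = 0.314 (adjusted p = 0.343). The difference of 8.27 percentage points was 4.68 without knockout 1 and 5.37 without knockout 3.

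Within the monocytes, the Ly6c2/Ccr2 side made up 35.7%, 50%, 36.4% and 63.6% in control and 34.3%, 9.09%, 4.29% and 9.09% in knockout mice. Every control lay above every knockout, and knockout 1, with 34 of 99 monocytes on that side, lay just below the lowest control. In knockout 4 the side was 1 cell, the one with UMIs of Tcf7 and Klrb1b. The means were 46.4 ± 13.2% and 14.2 ± 13.6% (SD, n = 4 each). The sides are made of the rule genes, so their share is a description and no test is given for it. Counts were small, and the exact 95% intervals of control 1 (12.8% to 64.9%) and knockout 4 (0.23% to 41.3%) overlapped. With a rule sum of at least 6 the groups overlapped (control 1 30.8%, knockout 1 32.3%). They also overlapped by the share of the side genes' UMIs from Ly6c2 and Ccr2 (control 3 28.9%, knockout 1 35.2%). They stayed apart with at least 1000 gene UMIs, with cells thinned to 2000 UMIs, and with a side difference of at least 2 UMIs.

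The difference in sides moved with the class II level of the cells. Without monocytes with at least 1% class II, a choice made after seeing the data, the side made up 19.7 ± 15.6% in control and 7.73 ± 4.95% in knockout mice (SD, n = 4 each). The part of these cells in the difference was not tested.

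**Figure D2:**
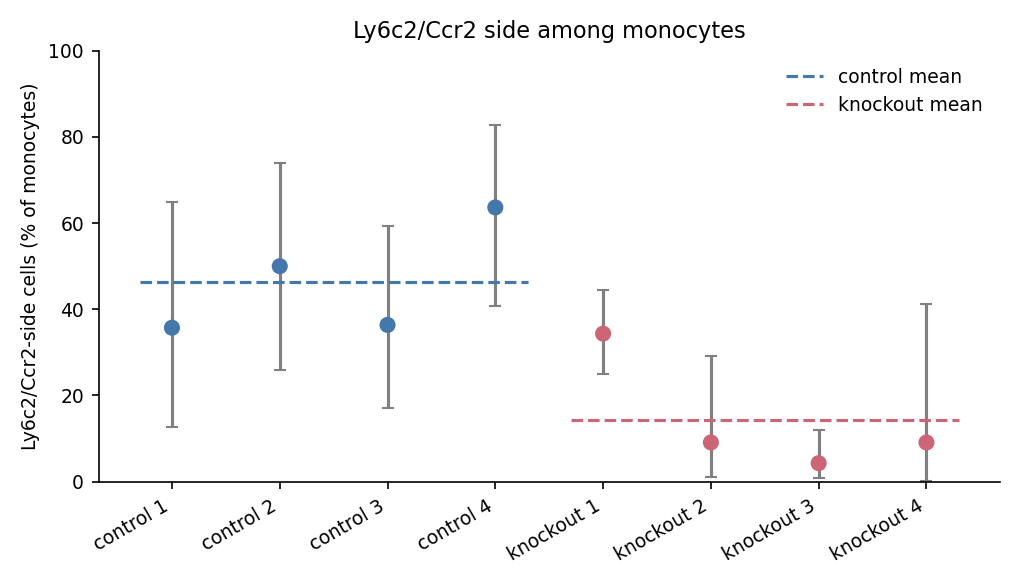
Ly6c2/Ccr2-side cells as a percentage of the monocytes of each of the 8 mice, with exact 95% binomial intervals as bars and group means as dashed lines. All 4 controls (35.7% to 63.6%) lie above all 4 knockouts (4.29% to 34.3%), and the intervals are wide.

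The targeted gene Arpc4 (ENSMUSG00000079426, mm10 chromosome 6 from 113378115 to 113390448, plus strand), the subunit that holds the Arp2/3 complex together, was measured in every mouse. In monocytes it had 169, 277, 244 and 237 CPM in control and 328, 209, 240.4 and 389 CPM in knockout mice, from 13, 30, 31 and 28 UMIs and 210, 31, 71 and 17 UMIs. Knockout monocytes lay within or above the control range. In the microglia of the same mice it had 240.2, 221, 231 and 231 CPM in control and 146, 143, 136 and 132 CPM in knockout mice, and all 4 knockouts lay below all 4 controls. Its log2 difference in monocytes was 0.18 ± 0.26 (SE), with an adjusted p of 0.879 (Benjamini-Hochberg) in the quasi-likelihood test of edgeR.

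In a fit of monocyte and microglia sums together, Arpc4 fell by 0.61 on the log2 scale in microglia (SE 0.13, adjusted p = 0.000824, edgeR), and the difference between both cell classes was 0.96 ± 0.24 (SE, adjusted p = 0.0241, edgeR). That difference kept its direction in every alternative, and its adjusted p ran from 0.000258 to 0.215. It missed 0.05 with the mouse as a block (0.90, adjusted p = 0.165, edgeR), where the pairing is real because each mouse gave both sums. It also missed without control 1 (adjusted p = 0.121), control 2 (0.0662), control 3 (0.069), control 4 (0.0959), knockout 1 (0.093) or knockout 4 (0.0703) by edgeR, and with microglia drawn down to the number of monocytes (0.215). Which exons of Arpc4 are floxed is not given in the sources used here, the 3′ tags may lie outside the deleted part, Ttll3 overlaps the gene on the same strand, and free RNA in near-empty droplets held 229 CPM of Arpc4, so these levels do not check whether the monocytes lost the gene.

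**Figure D3:**
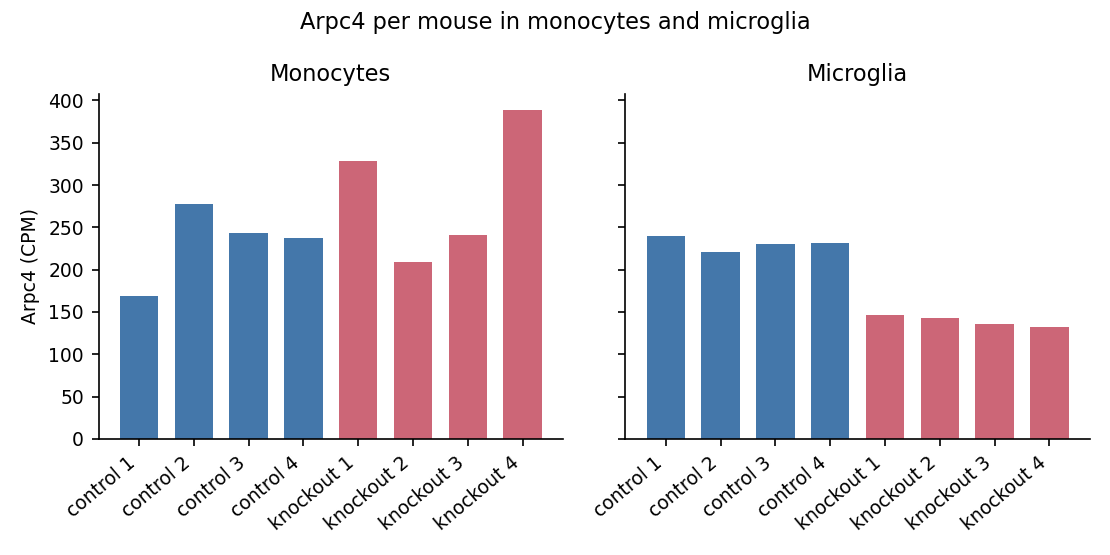
Arpc4 in monocytes and microglia of each mouse (CPM, bars for mice, colour for genotype). In microglia the knockouts (132 to 146) lie below the controls (221 to 240.2), and in monocytes the knockouts (209 to 389) lie within or above the controls (169 to 277).

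The other 8 Arp2/3 subunits were all tested in monocytes, and 0 of the 9 subunits reached an unadjusted p under 0.05 between genotypes. Their median log2 difference, Arpc4 included, was 0.04, beside −0.01 over all 1912 genes tested. Actr2 and Actr3, the actin-like pair of the complex, differed by 0.22 ± 0.26 and −0.18 ± 0.25 (SE). Arpc2, a structural subunit, had means of 992 ± 158 CPM in control and 1263 ± 249.8 CPM in knockout monocytes (SD, n = 4 each), and Arpc1b, the isoform frequent in blood cells, 893 ± 178 and 1211 ± 369.8 CPM. Arpc1a, its paralog, had 169, 157, 236 and 153 CPM in control and 142, 141, 115 and 114 CPM in knockout monocytes. It was the 1 subunit whose groups did not overlap (log2 difference −0.55 ± 0.26 SE, adjusted p = 0.491, edgeR).

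Between genotypes, 0 of 1912 genes tested in monocytes passed an adjusted p of 0.05 by edgeR (0%), the lowest adjusted p being 0.104. At an unadjusted p under 0.05 there were 199 genes, 109 with a higher level in knockout monocytes (5.7% of those tested) and 90 with a lower one (4.71%). Groups that did not overlap were found for 67 genes higher in knockout (3.5%) and 31 genes lower (1.62%). DESeq2's Wald test, an alternative tool, passed 10 genes, of which Btg1, Gngt2, Fcgr4 and Il1b were higher in knockout and Ighm, Irf8, Pmepa1, Tmem176b, Ramp1 and H2-DMa were lower. The gene lists are therefore described by values and counts, beside these shares.

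The count of 0 depended on single mice and cells. Without knockout 2, edgeR passed 63 genes, 38 higher and 25 lower in knockout monocytes. Without knockout 1 it passed 8 genes, of which H2-Aa, H2-Ab1, H2-Eb1, Cd74, H2-DMa, H2-DMb1 and Tmem176b were lower and G0s2, a lipase inhibitor, was higher. Without knockout 3 it passed Pf4, a platelet and macrophage chemokine, alone. Without the 3 cells that held Car1, a choice made after seeing the data, it passed Irf8 (−1.85, adjusted p = 0.0164, edgeR) and Ighm (−1.92, 0.0319), both lower in knockout. The cell in knockout 2 held 53012 of the 148650 UMIs of that mouse, and the cells in control 1 and control 3 held 25659 of 76996 and 23405 of 127218, so they lower the CPM of genes they lack in these mice. Among the genes named here that entered a main test, the groups of 11 do not overlap with the 3 cells and overlap without them (Arpc1a, Pmepa1, Ramp1, Pigp, B2m, Ceacam1, Sort1, Ccl6, Ifi27l2a, Akna and March2). The groups of 7 overlap with them and not without them (Il1b, Napsa, Itgb2, Fcer1g, Ctsb, Ms4a6c and Pltp), and 28 do not overlap either way.

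Of the lists, class II presentation had the median difference between genotypes farthest from 0. H2-Aa had 2974, 4026, 3058 and 3679 CPM in control monocytes and 2686, 552, 477 and 0 CPM in knockout monocytes. Cd74 had 10091, 13686, 11146 and 12866 CPM in control and 8548, 1682, 2221 and 686 CPM in knockout monocytes. In both genes every knockout lay below every control, and knockout 1 lay far nearer to the controls than the other knockouts. H2-Aa differed by −1.88 ± 0.68 (SE, adjusted p = 0.357) and Cd74 by −1.93 ± 0.54 (adjusted p = 0.248, edgeR).

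All 6 class II genes tested, of 8 on the list, had p under 0.05 in this direction and groups that did not overlap, with a median log2 difference of −1.91 beside −0.01 over all genes tested. The list summed to 19105, 25904, 19486 and 24622 CPM in control and 16237, 3142, 3546 and 892 CPM in knockout monocytes. Without knockout 1 the 6 genes passed the test and their median was −3.14. H2-DMa, which helps load peptides onto class II molecules, differed by −1.40 ± 0.35 (SE). On the Ace/Spn side alone Cd74 was the 1 class II gene with enough counts to be tested, and it differed by −1.23, so the list's median there cannot be set beside the whole.

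Non-classical monocyte genes lay the other way. Of 20 tested, 11 had a p under 0.05 with a higher level in knockout monocytes and 0 with a lower one, 5 had groups that did not overlap, and the median log2 difference was 0.86. Cebpb, which non-classical monocytes need to survive, had 1325, 1154, 1407 and 1026 CPM in control and 2223, 1520, 3759 and 3019 CPM in knockout monocytes. Cd300e had 90.9, 64.6, 118 and 42.4 CPM in control and 211, 168, 366 and 183 CPM in knockout monocytes. In both genes all 4 knockouts lay above all 4 controls, and they differed by 0.98 ± 0.25 (SE, adjusted p = 0.239) and 1.50 ± 0.37 (adjusted p = 0.199, edgeR).

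Fcgr4, an activating Fc receptor, had 104, 111, 212 and 102 CPM in control and 509.9, 229, 471 and 435 CPM in knockout monocytes, a difference of 1.52 ± 0.33 (SE). Clec4a1, an inhibitory C-type lectin, had 143, 111, 165 and 178 CPM and 282, 235, 419.9 and 435 CPM, a difference of 1.05 ± 0.28. For both the knockouts lay above all controls. Pglyrp1, a peptidoglycan-binding protein, differed by 1.17 ± 0.35, and Nr4a1, the factor that drives the non-classical fate, by 0.78 ± 0.39. The list summed to 5754, 4008, 6988 and 4043 CPM in control and 9147, 6034, 14450 and 14454 CPM in knockout monocytes.

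Within the Ace/Spn side alone these differences were smaller. Of 19 non-classical genes tested there, 0 reached an unadjusted p under 0.05 and the median log2 difference was 0.01, where edgeR tested 900 genes, passed 0 of them and found 25 at an unadjusted p under 0.05. Cebpb differed there by 0.04, Clec4a1 by 0.01 and Cd300e by 0.57. The test in the side has fewer cells and fewer genes, and the part of the sides in the list's difference was not tested otherwise.

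**Figure D4:**
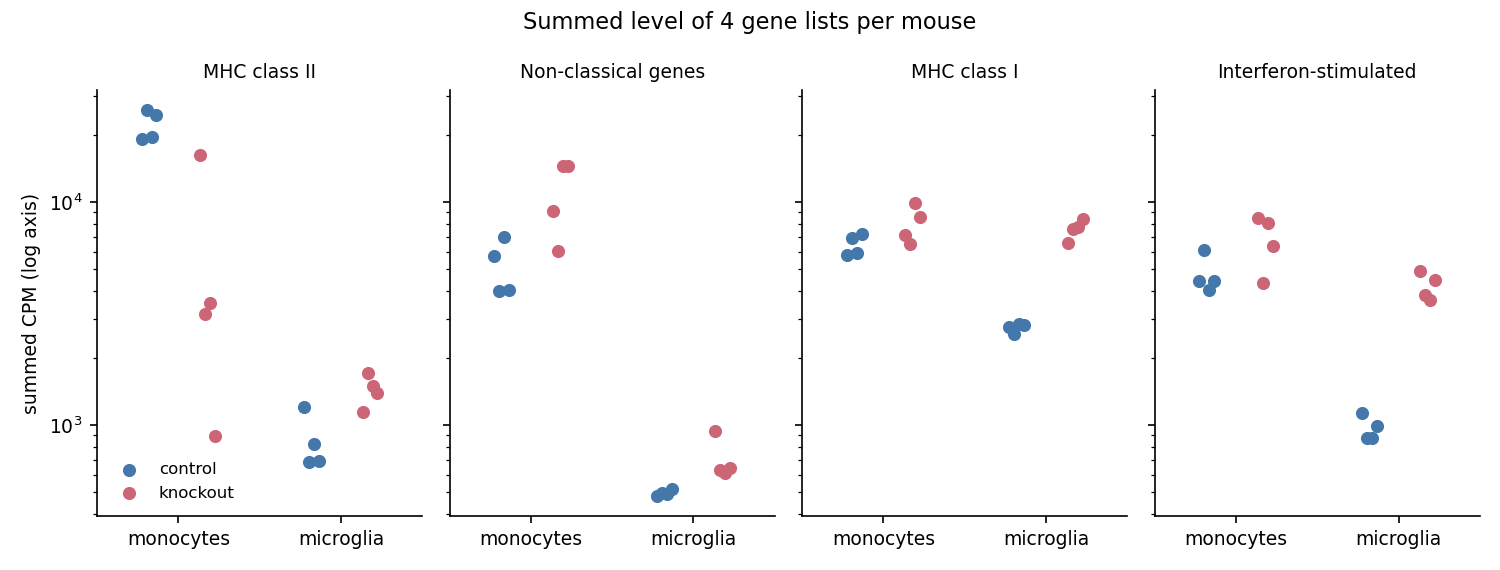
Summed level of 4 gene lists in each mouse (CPM, log axis), in monocytes and in microglia, with points for mice and colour for genotype. In monocytes class II sums lie at 892 to 16237 in knockouts against 19105 to 25904 in controls, and the non-classical sums at 6034 to 14454 against 4008 to 6988.

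Among transcription factors of monocytes, 3 of 12 tested had a p under 0.05 with a higher level in knockout and 1 with a lower one, and the median log2 difference was 0.39. Irf8, which directs progenitors to monocytes and dendritic cells, had 247, 563, 330.1 and 602 CPM in control and 141, 87.5, 183 and 91.5 CPM in knockout monocytes. Every knockout lay below every control, and the difference was −1.80 ± 0.34 (SE, adjusted p = 0.104, edgeR). The 3 factors on the other side were Cebpb, Klf2, which keeps monocytes quiescent, at 0.80 ± 0.34, and Tcf7l2, a Wnt effector, at 0.92 ± 0.39. Klf2 had 481, 388, 707 and 636 CPM in control and 965, 424, 1510 and 1326 CPM in knockout monocytes, and knockout 2 lay among the controls.

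Inflammatory and activation genes had few members with enough counts. Of 6 inflammatory genes tested, all 6 had a positive log2 difference with a median of 0.72, 3 had a p under 0.05 (Il1b, Ccl6 and Ccl9), and Nos2, Ptgs2 and Il10 were at 0. Il1b, a cytokine released by activated myeloid cells, had 64.9, 55.4, 31.4 and 93.2 CPM in control and 368, 87.5, 274 and 778 CPM in knockout monocytes. Knockout 2 lay within the control range, and at 136 CPM, above it, without its cell that held Car1, where control 1 was highest of the controls at 97.4 CPM without its own. The difference was 2.37 ± 0.56 (SE, adjusted p = 0.171, edgeR). Of 7 immediate early genes, Junb and Ier2 had a p under 0.05 with a higher level in knockout, and the median was 0.61. Of 9 complement and Fc receptor genes, Itgb2, Fcgr4 and Fcer1g did, and the median was 0.25.

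Actin regulators, the partners of the Arp2/3 complex, showed little. Of 27 tested, 0 reached an unadjusted p under 0.05 by edgeR, and the median log2 difference was 0.14. Actb, cytoplasmic actin, differed by −0.08 ± 0.22 (SE) and Pfn1, the monomer-binding profilin, by 0.14 ± 0.17. Of 10 trafficking and adhesion genes, 3 had a p under 0.05 with a higher level in knockout, namely the integrins Itga4 (0.92 ± 0.34) and Itgb2 (0.81 ± 0.29) and the hyaluronan receptor Cd44 (0.83 ± 0.35), and the list's median was 0.34. Cx3cr1, whose promoter drives the Cre, had means of 827 ± 299 CPM in control and 722 ± 258 CPM in knockout monocytes (SD, n = 4 each).

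Interferon-stimulated and class I genes had few low p values between genotypes. Of 10 interferon-stimulated genes tested, 8 were higher and 2 lower, Ifitm3 (0.62 ± 0.22) and Ifi27l2a (0.90 ± 0.26) had a p under 0.05 with a higher level in knockout, and the median was 0.39. The list sums overlapped, with 6067 CPM in control 2 and 4339 CPM in knockout 2. Of 9 class I genes 5 were higher and 4 lower, Psmb9, an immunoproteasome subunit, had a p under 0.05 with a lower level, and the median was 0.08. B2m, the light chain of class I, had groups that did not overlap, at 1935, 2004, 1926 and 2017 CPM in control and 2323, 2260, 3342 and 3202 CPM in knockout monocytes (0.38 ± 0.18 SE, adjusted p = 0.484, edgeR). Of 7 classical monocyte genes, Hp, Gsr and Gda had a p under 0.05 with a higher level in knockout, and the median was 0.62.

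Of 16 genes of the monocyte to macrophage transition, Ctsb and Ms4a6c had a p under 0.05 with a higher level in knockout and Maf, Tmem176a and Tmem176b with a lower one, and the median was −0.14. Apoe, a lipid carrier, had 8767, 3537, 3592 and 4780 CPM in control and 4173, 5624, 5713 and 3499 CPM in knockout monocytes, with overlapping groups. Of 13 microglia markers tested, C1qa, C1qb, C1qc and Cst3 had a p under 0.05 with a lower level in knockout, and the median was −0.68, beside 0.09 on the Ace/Spn side. Of the other marker lists, Wdfy4 of the dendritic cell list and Ighm, the immunoglobulin heavy chain, of the B cell list had a p under 0.05 and a lower level in knockout. The 2 plasmacytoid markers, the 2 cycling genes and the 1 brain gene tested did not, and no gene of the macrophage, T cell, natural killer cell, granulocyte, progenitor, basophil and haemoglobin lists had enough counts to be tested.

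Several genes, most of them outside the lists, had the lowest p of the fit. Myo5a, a vesicle motor, had 143, 139, 181 and 93.2 CPM in control and 53.2, 47.1, 40.6 and 22.9 CPM in knockout monocytes, without overlap (−1.68 ± 0.32 SE, adjusted p = 0.104, edgeR). Gngt2, a G protein subunit, differed by 1.39 ± 0.28, Btg1, an antiproliferative factor, by 1.34 ± 0.28, Ighm by −1.83 ± 0.37 and Ramp1, a receptor partner for CGRP, by −1.44 ± 0.28. Ighm belongs to the B cell list, whose sum was lower in the knockouts in microglia as well. On the Ace/Spn side alone Btg1 differed by 1.15 and Gngt2 by 0.51.

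The joint fit of monocyte and microglia sums asked which genotype differences were not the same in both cell classes. Of 11290 genes, 464 passed, 188 with a higher difference in monocytes (1.67%) and 276 with a lower one (2.44%), by the same test of edgeR. Of these, 391 also passed the test of genotype within microglia, where 132 fell in microglia and had the higher difference in monocytes and 258 rose in microglia and had the lower one. Within this fit, which pools the spread of both classes, 4 genes passed for monocytes, namely Btg1 (1.50 ± 0.22), Gngt2 (1.52 ± 0.23) and Gsr (1.45 ± 0.25), which rose, and Irf8 (−1.57 ± 0.27), which fell.

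The number of genes that passed and its split depended on scaling and on single mice. Of the 464, 40.5% had the higher difference in monocytes, and with DESeq2's size factors 25% of 488 did, while the median of all genes moved from 0.06 to −0.11. The count was 296 without control 1, 270 without control 2, 276 without control 3, 167 without control 4, 306 without knockout 3, 320 without knockout 4 and 736 without knockout 2. Without knockout 1 it was 468, and the split moved to 142 higher and 326 lower. Without the 3 cells that held Car1 it was 464, of which 399 were among the first 464. On the Ace/Spn side alone, an alternative added after seeing the data, 219 genes passed, 179 of them higher in monocytes, and the median of all genes was 0.65.

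With the mouse as a block, H2-Aa (−3.14), H2-Ab1 (−3.78), H2-Eb1 (−3.14), H2-DMb1 (−1.37), Il1b (−1.72), Itga4 (−1.70), Ms4a6c (−1.10), Car2 (−4.04), Napsa (1.52), Pglyrp1 (1.38) and Saa3 (7.25) passed as well. Saa3 had 1230 UMIs in the monocytes of knockout 1, 707 of them in 1 cell, and at most 17 in any other mouse. In CPM, knockout 1 had 1924 and knockout 4, the shallowest sum, had 389. Car2 had 13, 0, 26 and 0 UMIs in control and 0, 91, 0 and 1 in knockout monocytes.

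In the class I and interferon lists the genes that passed all had 1 direction. Of 12 class I genes 6 passed, all lower in monocytes, with a median of −1.02 beside 0.06 over all genes tested. H2-D1, a class I heavy chain, had 1753, 2069, 1470 and 2153 CPM in control and 2119, 1709, 3156 and 2676 CPM in knockout monocytes, which overlap, against means of 519.7 ± 31.8 and 2048 ± 194 CPM in microglia (SD, n = 4 each). The difference between classes was −1.70 ± 0.27 (SE, adjusted p = 0.000881, edgeR), and monocytes already held in control mice about what knockout microglia held. H2-K1 (−1.45 ± 0.25) and B2m (−1.02 ± 0.23) passed in the same direction, B2m not without control 3 (adjusted p = 0.0544, edgeR) or control 4 (0.0732). Psmb9 (−1.02) passed, but not without control 2 (adjusted p = 0.114, edgeR), control 3 (0.0874), control 4 (0.11), knockout 3 (0.0619) or knockout 4 (0.0541), nor with the mouse as a block (0.0651). Of the list, 3 genes passed without control 4 and 8 without knockout 1.

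Of 29 interferon-stimulated genes 17 passed, all lower in monocytes, and the list's median was −2.16. Ifitm3, a membrane protein that blocks viral entry, had 2091, 2050, 2052 and 1966 CPM in control and 4110, 1978, 3945 and 3522 CPM in knockout monocytes, against means of 63.2 ± 21.6 and 446 ± 128 CPM in microglia (SD, n = 4 each). Its difference between classes was −2.16 ± 0.38 (SE, adjusted p = 0.00186, edgeR). Ifi27l2a (−2.01 ± 0.40) and Bst2, a tether of virions (−2.01 ± 0.33), passed as well. The count was 5 without control 2, 11 without control 3 and 10 without control 4. On the Ace/Spn side alone 1 of 28 passed, and the median was −0.91 beside 0.65 over all genes.

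Of 8 class II genes, Cd74 (−3.19 ± 0.70 SE, adjusted p = 0.00977, edgeR) and H2-DMa (−1.52 ± 0.37) passed, all 8 had a negative difference and the median was −1.90. Cd74 rose by 1.54 ± 0.49 in microglia. The call of Cd74 was lost without control 2 (adjusted p = 0.0522, edgeR) or control 4 (0.0692). H2-DMa lost it without control 2 (adjusted p = 0.0947, edgeR), control 3 (0.0549), control 4 (0.131), knockout 3 (0.0839) or knockout 4 (0.0631). With the mouse as a block 7 of the 8 passed, as 8 did without knockout 1.

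Among genes of the macrophage transition, 7 of 24 were lower in monocytes and 1, the growth factor receptor gene Csf1r, higher, with a median of −0.85. Csf1r lost its call without control 1 (adjusted p = 0.0704, edgeR), control 2 (0.0551), control 3 (0.0899), control 4 (0.0895) or knockout 3 (0.0994) and with the mouse as a block (0.0514), and 3 of the 7 lower genes passed without control 4. Apoe rose in microglia from 1505 ± 292 to 16289 ± 8834 CPM (SD, n = 4 each), with 29432 CPM in knockout 1 and 10667 to 13385 CPM in the others, while its monocyte values overlapped. The difference between classes was −3.63 ± 0.46 (SE, adjusted p = 0.000113, edgeR). Axl, a receptor for apoptotic cells, had means of 72.9 ± 14.3 CPM in control and 36.1 ± 33.4 CPM in knockout monocytes (SD, n = 4 each), and of 19.5 ± 3.64 and 250.2 ± 21.3 CPM in microglia (−4.68 ± 0.47 SE).

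The genes of the monocyte program were divided. Of 22 non-classical genes 6 were higher and 4 lower in monocytes, with a median of 0.79. Ceacam1, an adhesion receptor, had 104, 73.9, 86.5 and 50.9 CPM in control and 127, 155, 379 and 389 CPM in knockout monocytes, without overlap, while it fell by 0.98 in microglia, and the difference was 2.62 ± 0.45 (SE, adjusted p = 0.00167, edgeR). Clec4a1 (2.10 ± 0.43) and Clec4a3 (2.03 ± 0.34), both lectins of the same cluster, passed too. The 4 lower genes were Cd36, Itgax, Itgal and Stap1. Cd36 lost its call without control 4 (adjusted p = 0.0508, edgeR), and Itgax without control 1 (0.0556), control 2 (0.106), control 3 (0.0581), control 4 (0.0715) or knockout 3 (0.0517). The integrin chain Itgal had means of 317 ± 122 and 685 ± 342 CPM in monocytes and 1.43 ± 0.265 and 17.3 ± 4.37 CPM in microglia (SD, n = 4 each; −2.50 ± 0.52 SE).

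Of 14 transcription factors Klf2 (1.89 ± 0.44), Tcf7l2 (1.65 ± 0.32) and Bach1, a heme-responsive repressor (1.30), were higher and Irf8 (−1.63 ± 0.33) lower, with a median of 0.58. Klf2 lost its call without control 1 (adjusted p = 0.0672, edgeR), control 2 (0.111), knockout 3 (0.0782) or knockout 4 (0.0588), and Irf8 without control 4 (0.0539). Bach1 lost it without control 1 (adjusted p = 0.0612, edgeR), control 2 (0.0937), control 4 (0.0517) or knockout 3 (0.065). Of 14 classical genes Gsr, glutathione reductase, was higher (1.21 ± 0.31) and Lyz2, lysozyme, lower (−1.48 ± 0.34). Gsr lost its call without control 2 (adjusted p = 0.154, edgeR), control 3 (0.0509), control 4 (0.151), knockout 3 (0.0937) or knockout 4 (0.0659), and Lyz2 without control 1 (0.0631), control 4 (0.0503) or knockout 4 (0.0504). Lyz2 had 11247, 6806, 5149 and 5399 CPM in control and 5923, 4050, 8798 and 8416 CPM in knockout monocytes, which overlap, and rose in microglia from 322 ± 13.1 to 792 ± 110.0 CPM (SD, n = 4 each).

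In the actin and adhesion lists the genes that passed were mostly higher in monocytes. Of 32 actin regulators, Was, an activator of Arp2/3 in blood cells (1.13 ± 0.30), the formin Fmnl1 (0.96 ± 0.26) and Eps8, an actin capper (1.95 ± 0.55), were higher and 0 lower, with a median of 0.58. No gene of the list was lower at an unadjusted p under 0.05, nor lower by DESeq2, which passed 7 as higher. The count was 13 without knockout 2 and 2 without knockout 1, none passed without control 1, control 2, control 3, control 4 or knockout 3, and with DESeq2's size factors Was alone passed. Was lost its call without control 1 (adjusted p = 0.106, edgeR), control 2 (0.0869), control 3 (0.138), control 4 (0.0882), knockout 1 (0.177) or knockout 3 (0.094), and Fmnl1 without control 1 (0.12), control 2 (0.0767), control 3 (0.0883), control 4 (0.114), knockout 3 (0.116) or knockout 4 (0.0858). Eps8 lost it without control 1 (adjusted p = 0.119, edgeR), control 2 (0.098), control 3 (0.137), control 4 (0.151), knockout 1 (0.107), knockout 3 (0.0541) or knockout 4 (0.0934). With the mouse as a block Was (adjusted p = 0.261, edgeR) and Fmnl1 (0.147) missed 0.05.

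Of 18 trafficking and adhesion genes, Pecam1, a junction receptor (3.82 ± 0.49), and the integrin chains Itgam (1.40) and Itgb1 (1.02) were higher and Cd44 lower (−2.67 ± 0.41), with a median of 0.53. Pecam1 had 13, 36.9, 23.6 and 33.9 CPM in control and 73.5, 13.5, 61.0 and 45.7 CPM in knockout monocytes, which overlap, and fell by 2.61 in microglia. Itgam lost its call without control 1 (adjusted p = 0.0506, edgeR), control 3 (0.0531), control 4 (0.064) or knockout 3 (0.0609), and Itgb1 without control 1 (0.147), control 2 (0.194), control 4 (0.17), knockout 3 (0.16) or knockout 4 (0.119) and with the mouse as a block (0.0886). Of the 13 complement and Fc receptor genes C3 and Fgr were lower, and the median was 0.32. C3 lost its call without control 2 (adjusted p = 0.302, edgeR), control 3 (0.131), control 4 (0.123), knockout 3 (0.0577) or knockout 4 (0.0636).

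Of the remaining lists, 0 of 17 inflammatory genes (median −0.00), 0 of 14 immediate early genes (0.43), 0 of 12 microglia markers (0.56) and 0 of 11 cycling genes (−1.19) passed edgeR's test of the difference, where 3, 3, 1 and 3 had an unadjusted p under 0.05 and DESeq2 passed 1, 0, 0 and 0. Without knockout 2, 3 inflammatory genes and 1 immediate early gene passed higher and 5 cycling genes lower, and without knockout 3 1 inflammatory gene passed. Single genes of other marker lists passed, with Klrd1 of the natural killer cell list and Pltp of the brain and vessel list higher, and Ms4a7 of the macrophage list, Ifi205 of the dendritic cell list and Rnase6 of the plasmacytoid list lower. Ms4a7 (−4.70) kept its call in all 8 fits that left out a mouse, but on the Ace/Spn side alone its direction turned (6.97). Klrd1 lost it without control 1 (adjusted p = 0.149, edgeR), control 2 (0.0699), control 3 (0.148), control 4 (0.131), knockout 1 (0.708) or knockout 4 (0.118), and Pltp without control 4 (0.0732) and with the mouse as a block (0.0975). Ifi205 lost it without control 2 (adjusted p = 0.092, edgeR), control 3 (0.0734) or control 4 (0.0585), and Rnase6 without control 3 (0.0696) or control 4 (0.129). None of the few T cell, B cell, granulocyte, progenitor and haemoglobin genes tested passed.

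**Figure D5:**
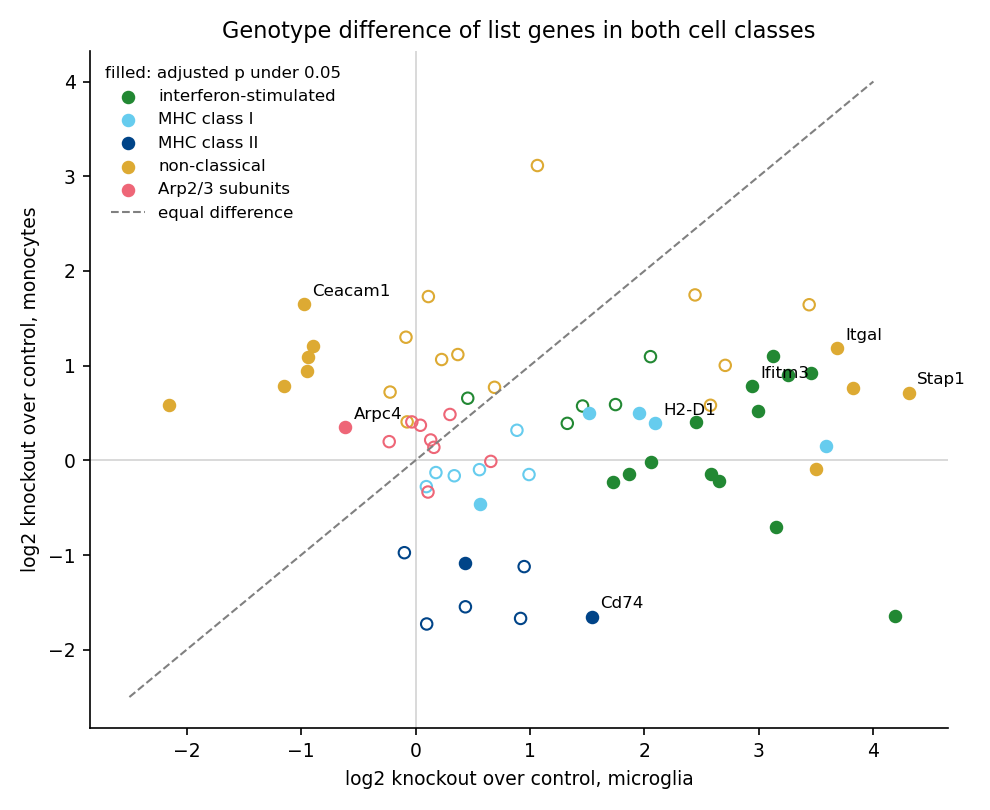
Log2 difference of knockout over control in microglia (horizontal axis) and in monocytes (vertical axis) for genes of 5 lists with at least 50 CPM in monocytes of either genotype. Filled points passed the test of the difference between classes, the dashed line marks an equal difference, and 17 of 18 interferon-stimulated and all 11 class I genes lie below it.

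Among genes with at least 50 CPM in monocytes of either genotype and groups of monocyte values that did not overlap, the 10 largest falls of the difference were those of Ifi211 (−5.69), Plxnc1 (−4.42), Myo5a (−4.16), Clec12a (−3.39), Cd74 (−3.19), Gpr65 (−3.17), Syce2 (−2.41), Ifi27l2a (−2.01), Pigp (−1.77) and Ramp1 (−1.73). Myo5a rose by 2.73 in microglia, and its difference of −4.16 ± 0.32 (SE) had an adjusted p of 1.77e-07, the lowest of the fit (edgeR). Ifi211, an interferon-inducible DNA sensor that overlaps Mndal on the same strand, had 77.9, 148, 94.3 and 102 CPM in control and 42.2, 33.6, 20.3 and 0 CPM in knockout monocytes. Clec12a, an inhibitory receptor for uric acid crystals, had 221, 203, 165 and 254 CPM in control and 84.5, 87.5, 122 and 114 CPM in knockout monocytes. In both, monocytes and microglia lay in opposite directions, and the genotype difference in microglia was 4.14 ± 0.26 and 2.40 ± 0.41.

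Syce2, a synaptonemal complex gene, and Gpr65, a proton-sensing receptor, kept their calls in all 8 fits that left out a mouse. Syce2 had 77.9, 73.9, 110.0 and 50.9 CPM in control and 10.9, 47.1, 10.2 and 22.9 CPM in knockout monocytes, and in microglia it did not pass (0.27 ± 0.15). The call of Clec12a was lost without control 4 (adjusted p = 0.0634, edgeR), and that of Ramp1 without control 3 (0.0874), control 4 (0.0793) or the 3 cells that held Car1 (0.065). Pigp, an enzyme subunit of GPI anchor synthesis, lost it without control 1 (0.0883), control 3 (0.0708), control 4 (0.0732), knockout 1 (0.113) or knockout 3 (0.0512).

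The 10 largest rises of the difference were those of Ceacam1 (2.62), Trib1 (2.39), Furin (2.16), Sort1 (2.11), Clec4a1 (2.10), Parl (1.90), Polr3c (1.81), Tpp1 (1.65), Akna (1.57) and March2 (1.57). Parl, a protease of the mitochondrial inner membrane, had 39.0, 27.7, 39.3 and 17.0 CPM in control and 98.5, 94.2, 71.1 and 68.6 CPM in knockout monocytes, without overlap (1.90 ± 0.35 SE, adjusted p = 0.00246, edgeR). Sort1, a sorting receptor, had 39.0, 36.9, 23.6 and 8.48 CPM in control and 40.7, 80.7, 57.6 and 68.6 CPM in knockout monocytes and fell by 0.94 in microglia (2.11 ± 0.37). Akna, a centrosomal protein, differed by 1.57 ± 0.31. These genes are low, and 1 UMI in knockout 4 is worth 22.9 CPM.

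Ceacam1, Sort1, Clec4a1, Parl and Akna kept their calls in all 8 fits without a mouse. The proprotein convertase Furin lost it without control 1 (adjusted p = 0.0602, edgeR), control 4 (0.0824) or knockout 1 (0.0549), and Tpp1, a lysosomal peptidase, without control 3 (0.0559). Trib1 lost it without control 1 (adjusted p = 0.0533, edgeR), control 2 (0.126), control 3 (0.131), control 4 (0.109), knockout 3 (0.115) or knockout 4 (0.0595), and Polr3c without control 1 (0.121), control 3 (0.0698), control 4 (0.136) or knockout 3 (0.0721). March2, which overlaps Hnrnpm on the same strand, lost it without control 1 (adjusted p = 0.122, edgeR), control 2 (0.137), control 3 (0.14), control 4 (0.151), knockout 1 (0.381), knockout 4 (0.0664) or the 3 cells that held Car1 (0.0645). With the mouse as a block, Furin (adjusted p = 0.0575, edgeR), Tpp1 (0.0575), Polr3c (0.111) and March2 (0.215) missed 0.05.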

How the data were processed

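CD45+ cells of 8 mouse brains, labelled with a tag per mouse and pooled into 1 library of 3′ tags, were measured by single-cell RNA sequencing. The deposited values were raw UMI counts per gene and barcode, which the authors made with Cell Ranger (6.1.2 in the submitters' processing notes, 7.1.0 in the headers of the tables) against mm10, and barcodes were given to a mouse by the authors from their tags. Of 32285 gene identifiers, 32158 matched the annotation used for positions. The labels speak of 6 multiplexed samples, and the tables of all 8 mice were used, knockout 1 included. The paper states that its female knockout mouse was left out of downstream analysis. All cells of these tables had at least 500 gene UMIs. Doublets were treated only through the authors' tags and the limits on markers of other cells. The table of the whole pool served for free RNA (droplets with at most 100 UMIs) and for barcodes given to no mouse.

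Monocytes were chosen by their counts of the rule genes, and microglia as other cells with at least 1% of gene UMIs from C1qa, C1qb, C1qc and 1 further gene that is not reported here, at most 2 UMIs of Pf4, Mrc1, Cd163, Lyve1 and F13a1 in sum, and the same limits on other lineages. The members and the 27 gene lists were chosen with earlier results of these data known, and 3 list genes are missing from the features. UMIs were summed per mouse and class and tested with the quasi-likelihood F-test of edgeR 4.0.16 (filterByExpr, TMM) under R 4.3.3, with Benjamini-Hochberg adjustment over all genes tested, and rule genes were left out of the tests. The joint fit held 16 sums in 4 groups, and both sums of a mouse come from the same animal, which is the source of the pairing for the mouse as a block. The share of the sides was planned as a test, but it is made of the rule genes and its test is not used. Shares were compared by an exact two-sided permutation test over mice, whose smallest p is 0.0286 for 4 against 4, and binomial intervals cover counting error only. The fitting code was tested on simulated counts. Other steps used Python 3.11.15, numpy 2.4.6, scipy 1.17.1, pandas 2.3.3 and matplotlib 3.10.9.

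Named genes are Arpc4 and the other Arp2/3 subunits, the rule genes, 2 to 4 members per list with the highest level or lowest p, leading genes of the classes, and for each test the 10 largest rises and falls among genes that passed 0.05 with at least 50 CPM and no overlap of groups. Names outside this rule, such as genes that passed only with DESeq2 or without a mouse, and list members beyond 4, were chosen after their values were seen. Alternatives were DESeq2 1.42.0 and its size factors, other limits on genes and cells, thinned cells, each side alone, blocks, microglia drawn down, and each mouse left out.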

Additional observations from a re-analysis of the deposited data

Results flagged for a closer look

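Some mice stood far from the others of their genotype, by the gap to the nearest mouse as a part of the group's range (Dixon). Of 144 groups of 4 values tested, 14 held such a mouse, where chance gives about 1 in 20. Control 1 had 1257 cells and 5251527 gene UMIs, and knockout 2 had 10768644 gene UMIs. Knockout 1 stood apart with 34 monocytes on the Ly6c2/Ccr2 side, 34.3% of its monocytes, and with 414 CPM of Ccr2 in monocytes. In its microglia the values apart were 1410 CPM of Xist, 3.99 CPM of Ddx3y, 749 CPM of Hbb-bs, 371 CPM of Cebpb, 164 CPM of Fcgr4, 208 CPM of Il1b and 29432 CPM of Apoe. Control 3 stood apart with 212 CPM of Fcgr4 in monocytes. The part of sex in these values was not tested.

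The test of the difference between classes passed 464 genes. Among named genes, the genotype difference was higher in monocytes than in microglia, on the log2 scale, for G0s2 (5.09), Pecam1 (3.82), Klrd1 (3.36), Ceacam1 (2.62), Trib1 (2.39), Furin (2.16), Pltp (2.12), Sort1 (2.11) and Clec4a1 (2.10). Values in the middle were those of Clec4a3 (2.03), Eps8 (1.95), Eno3 (1.93), Parl (1.90), Klf2 (1.89), Polr3c (1.81), Tpp1 (1.65), Tcf7l2 (1.65) and Akna (1.57). Then came March2 (1.57), Gngt2 (1.56), Btg1 (1.43), Itgam (1.40), Bach1 (1.30), Gsr (1.21), Was (1.13), Csf1r (1.09) and Itgb1 (1.02). Arpc4 (0.96) and Fmnl1 (0.96) followed.

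It was lower in monocytes for Ifi205 (−5.83), Ifi211 (−5.69), Ms4a7 (−4.70), Axl (−4.68), Plxnc1 (−4.42), Myo5a (−4.16), Ifit3 (−3.86), Apoe (−3.63) and Stap1 (−3.59). Further values were those of Cd36 (−3.59), Clec12a (−3.39), Cd74 (−3.19), Gpr65 (−3.17), C3 (−3.08), Itgax (−3.06), Fgr (−2.68), Cd44 (−2.67) and Itgal (−2.50). Next came Syce2 (−2.41), Ifitm3 (−2.16), Ifi27l2a (−2.01), Bst2 (−2.01), Tmem176b (−1.98), Pigp (−1.77), Ramp1 (−1.73), Tmem176a (−1.70) and H2-D1 (−1.70). Closest to 0 were Irf8 (−1.63), H2-DMa (−1.52), Lyz2 (−1.48), H2-K1 (−1.45), Rnase6 (−1.22), Psmb9 (−1.02) and B2m (−1.02).

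Among those not described further above, G0s2 lost the call without control 4 (adjusted p = 0.0608, edgeR), Tmem176b without control 4 (0.0522), and Ifit3 without control 2 (0.604), control 4 (0.0503) or knockout 4 (0.0534). Tmem176a lost it without control 1 (adjusted p = 0.124, edgeR), control 2 (0.0619), control 3 (0.0854), control 4 (0.154) or knockout 3 (0.0752).

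In the table of the whole pool, 7036 barcodes with at least 500 gene UMIs were given to no mouse, and 166 of them (2.36%) passed the monocyte rule, above the 0.0426% that a count of 0 allows. Of these, 61 lay on the Ly6c2/Ccr2 side, 100 on the Ace/Spn side and 5 on neither. Their median depth was 9739 UMIs. They entered no comparison.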

How the results depend on the processing

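Both shares of monocytes kept their direction and their side of 0.05 in every alternative, 13 for each. Without single mice, the difference between genotypes lay between 0.447 and 1.56 percentage points for the share of cells, and 4.68 and 12.3 for the share of cells other than microglia. With each cell thinned to 2000 UMIs, 151, 420, 338 and 293 cells of the controls and 246, 242, 159 and 166 of the knockouts were left out as too shallow, of which 1, 1, 0 and 1 and 1, 3, 0 and 0 were monocytes. With 3 mice against 4 the smallest possible exact permutation p is 0.0571.

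The count of genes passed between genotypes in monocytes, 0 by edgeR with 199 at an unadjusted p under 0.05, was 10 with DESeq2 (4 higher, 6 lower), 91 with no filter on low counts (55 higher, 36 lower) and 2 without the monocytes that held Car1 (both lower, added after seeing the data), and it ranged from 0 to 63 without single mice. The animals' numbers do not pair the genotypes. Deviations of same-numbered mice had correlations of −0.0113, 0.0142, −0.208 and −0.0592 across 1912 genes, which are not independent replicates, and no control correlated best with its own number. With that number as a block 0 genes passed and 165 had an unadjusted p under 0.05. Of 84 named genes tested, 37 passed in at least 1 alternative and 0 reversed.

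The 464 genes of the difference between classes became 875 with DESeq2 (214 higher, 661 lower), 719 with no filter (244 higher, 475 lower), 107 with microglia drawn down to the number of monocytes (10 higher, 97 lower, of 2878 genes tested) and 219 on the Ace/Spn side alone. The last was added after seeing the data. Without single mice the count ranged from 167 to 736. With the mouse as a block 448 genes passed (117 higher, 331 lower), of which 335 were among the 464, and the block changed no call of a named gene other than those given in the report. Of 63 named genes that passed, 9 kept their call in every alternative, 53 lost it in at least 1 and 3 reversed in at least 1. Eno3 was −2.06 with microglia drawn down (adjusted p = 0.697, edgeR). On the Ace/Spn side Ifit3 was 4.36 and Ms4a7 6.97. The cause was not tested.

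Depth limits these results. Monocyte sums held 43726 to 639358 gene UMIs from 11 to 99 cells, and 1912 genes had enough counts to be tested between genotypes. Lists of rare cells had few or no members with enough counts.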
